A study of Drosophila melanogaster with 8 samples.

Results

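The genes of the Drosophila fibroblast growth factor (FGF) pathway that act outside the general Ras cascade were compared between cultured cell lines. They are the receptor genes btl and htl, the adaptor gene stumps and the ligand genes bnl, ths and pyr. These 6 genes were chosen by symbol from the 17730 genes of each deposited table, and all 6 passed the filter on low counts. The tested line is ML-DmD17-c3 (D17-c3), a Drosophila melanogaster line derived from imaginal discs, and it is set against S2-DRSC, a stock of the embryonic line S2, which has features of hemocytes, the blood cells of the fly. Polyadenylated RNA came from 4 separate culture flasks of each line, grown without a treatment named in the labels, so that n is 4 per line throughout. Each line is represented by a single stock, and the spread between libraries is that between flasks. The labels give no date or batch for the libraries.

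FGF receptors are receptor tyrosine kinases that signal through Ras and the MAP kinase cascade. In the fly, Breathless (btl) answers the ligand Branchless (bnl) and guides the branching of the tracheal tubes and of the air sac primordium of the wing disc. Heartless (htl) answers Pyramus (pyr) and Thisbe (ths) and acts in migrating mesoderm, in muscle precursors and in glia. Stumps, also called Dof, is an adaptor that both receptors need to pass on the signal.

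Total expected counts per library ran from 76822525 to 91074700 in D17-c3 and from 83612326 to 110163700 in S2-DRSC, and a floor of 3 counts equalled at most 0.0391 counts per 1000000 (CPM). D17-c3 replicate 2 stood apart from its group: its log2 CPM correlated with the other D17-c3 libraries at 0.9812 to 0.9882, against 0.9953 to 0.9976 among those and 0.9971 to 0.9992 among the S2-DRSC libraries. Levels are given as deposited TPM (transcripts per 1000000, which corrects for length, so that genes can be compared), and differences as log2 fold changes ± SE, positive where D17-c3 was higher, from edgeR's quasi-likelihood test on the counts, with p-values adjusted over all 11606 tested genes. RNA of a culture cannot tell fewer expressing cells from less RNA per cell.

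D17-c3 cells expressed both receptor genes and the adaptor gene far above S2-DRSC cells, and the Branchless ligand gene moderately above them. The Pyramus ligand gene was lower in D17-c3, and the Thisbe ligand gene was low in both lines, at 20 to 47 counts per library. Of the 6 members, 4 were higher and 1 was lower in D17-c3 at an adjusted p under 0.05. Of all tested genes 39.1% were higher and 36.1% were lower, 75.2% together, so that a call as such is common between these lines. Of these calls 52% were toward D17-c3, against 60% with library totals in place of TMM and 62.9% in each test on unscaled TPM. At least 2-fold differences that passed the test were seen toward D17-c3 in 3 members, beside 25.6% of all tested genes, and toward S2-DRSC in 1, beside 17.4%. In CPM, 5 of the 6 members had no overlap between the libraries of D17-c3 and S2-DRSC, 4 with D17-c3 above and 1 with D17-c3 below, beside 71.6% of all tested genes (37.1% above and 34.5% below). Their log2 fold changes had a median of 2.43, beside 0.04 over all tested genes.

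**Figure D1:**
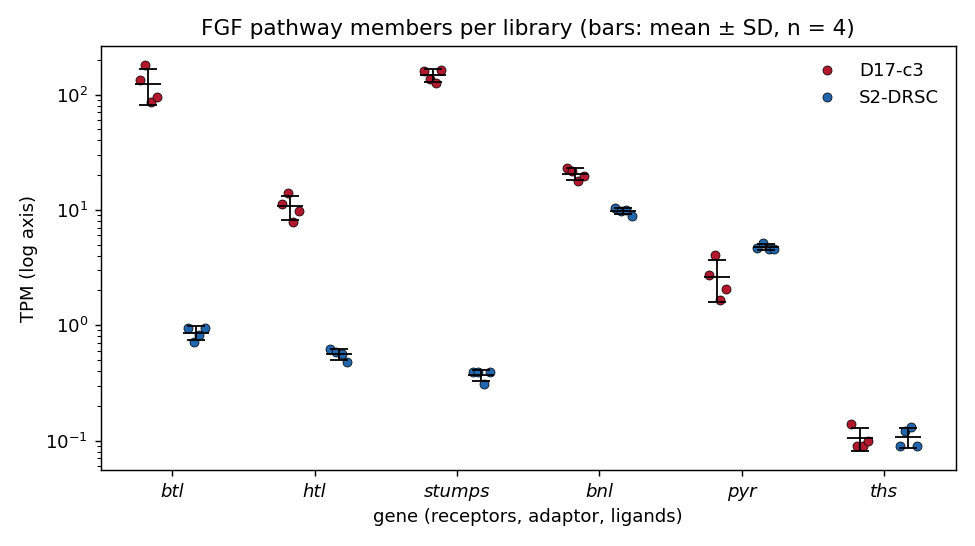
TPM of the 6 members in each library (points) on a log axis, with mean ± SD (n = 4) as bars, for D17-c3 (left of each pair) and S2-DRSC (right). The values of btl, htl and stumps lie well above those of S2-DRSC in each D17-c3 library, bnl lies above them at 17.8 to 23.2 TPM, pyr lies below, and ths overlaps.

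The Breathless receptor gene btl (3L, 14075772 to 14083229, plus strand, BDGP6) was expressed far more highly in D17-c3 than in S2-DRSC. It stood at 133, 180, 85.9 and 95.6 TPM in D17-c3 replicates 1 to 4, against 0.95, 0.71, 0.83 and 0.95 TPM in S2-DRSC replicates 1 to 4. Every D17-c3 library was far above every S2-DRSC library, and D17-c3 replicate 2 was the highest of its line. The mean was 124 ± 42.6 TPM in D17-c3 and 0.86 ± 0.115 TPM in S2-DRSC (SD), with a log2 fold change of 6.91 ± 0.23 (adjusted p = 1.08e-08, edgeR). Only 1.61% of the tested genes had a larger fold change toward D17-c3. Without D17-c3 replicate 2 the log2 fold change was 6.73. In S2-DRSC the gene was detected, with 219 to 252 counts per library.

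The Heartless receptor gene htl (3R, 18045216 to 18052984, minus strand) was also higher in D17-c3, at a lower level than btl. Its values were 11.2, 14.02, 7.86 and 9.87 TPM in D17-c3, against 0.62, 0.59, 0.56 and 0.48 TPM in S2-DRSC. The groups did not overlap, and D17-c3 replicate 2 was again the highest of its line. The log2 fold change was 4.04 ± 0.14 (adjusted p = 1.32e-08, edgeR), and 6.16% of the tested genes had a larger one. Counts in S2-DRSC were 113 to 173 per library, above the floor of 3 counts.

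The adaptor gene stumps (3R, 14577217 to 14608079, plus strand) had the largest difference of the members. It stood at 161, 137, 125 and 163 TPM in D17-c3, against 0.39, 0.39, 0.31 and 0.39 TPM in S2-DRSC. The log2 fold change was 8.32 ± 0.16 (adjusted p = 4.57e-10, edgeR), or 319-fold, with 0.638% of the tested genes above it. The D17-c3 libraries held 29214 to 39344 counts of stumps and the S2-DRSC libraries 87 to 124. Unlike both receptor genes, stumps was not raised in D17-c3 replicate 2, where its CPM was 0.8 times the mean of the other D17-c3 libraries.

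The ligand gene bnl (3R, 19794073 to 19836817, minus strand) was expressed in both lines. It had 23.2, 21.9, 17.8 and 19.6 TPM in D17-c3, against 10.4, 9.77, 10.1 and 8.93 TPM in S2-DRSC. The groups did not overlap, and the libraries of a line were close to each other. The log2 fold change was 0.82 ± 0.08 (adjusted p = 7.22e-06, edgeR), a 1.76-fold difference, and 28.9% of the tested genes had a larger one.

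The ligand gene pyr (2R, 11712263 to 11726345, plus strand) went the other way. It had 2.7, 4.03, 1.66 and 2.06 TPM in D17-c3, against 4.67, 5.15, 4.57 and 4.62 TPM in S2-DRSC. The libraries of S2-DRSC were nearly alike, and D17-c3 replicate 2 came nearest to them without reaching them. The log2 fold change was -1.14 ± 0.20 (adjusted p = 0.000612, edgeR), and it was -1.36 without D17-c3 replicate 2.

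The second Heartless ligand gene, ths (2R, 11756817 to 11814424, plus strand), lies 30471 bases from pyr on the same strand, with 0 annotated genes wholly between them. It had 42, 23, 23 and 25 counts in D17-c3, against 37, 47, 43 and 20 counts in S2-DRSC, which is at most 0.14 TPM. These ranges overlap. The log2 fold change was -0.34 ± 0.27 with a 95% interval from -0.96 to 0.28 (adjusted p = 0.279, edgeR), so that at this depth neither no difference nor a lower level in D17-c3 by nearly 1 log2 unit was outside the interval. The neighbours pyr and ths differed in level in both lines: the ratio of their TPM was 18.4 to 44.8 in D17-c3 and 35.2 to 51.9 in S2-DRSC.

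**Figure D2:**
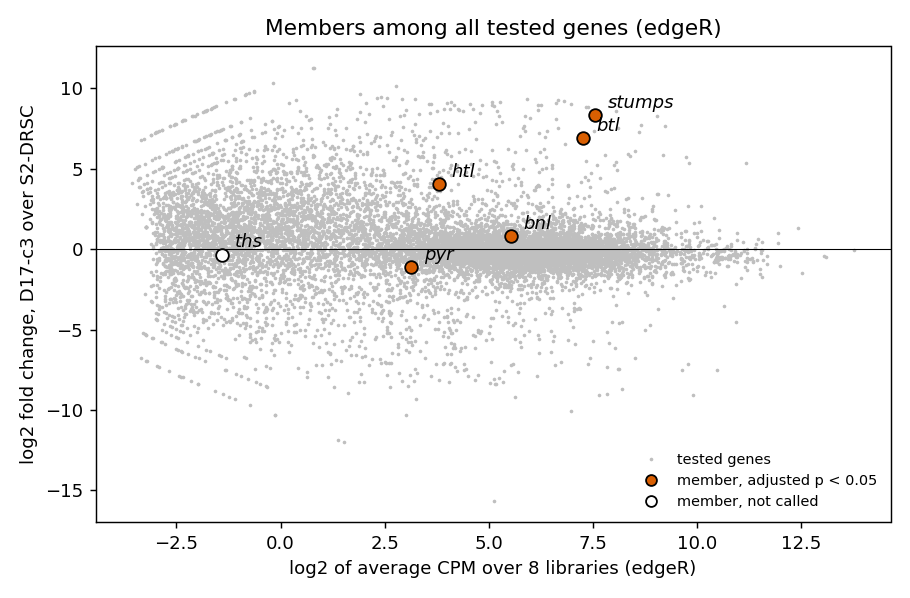
Log2 fold change (D17-c3 over S2-DRSC, y axis) against edgeR's log2 of the average CPM over the 8 libraries (x axis) for all 11606 tested genes (grey), with the members marked (filled where the adjusted p is under 0.05, open where not). The genes stumps and btl stand at the upper edge, on an x axis that the line with the higher level dominates, htl below them at 4.04, bnl and pyr on either side of 0 at 0.82 and -1.14, and ths is open.

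The order of the members by TPM differed between the lines. In D17-c3 it ran stumps (147 ± 18.7 TPM), btl (124 ± 42.6), bnl (20.6 ± 2.41), htl (10.7 ± 2.58), pyr (2.61 ± 1.04) and ths (0.105 ± 0.0238). Among these, stumps and btl overlapped between libraries, and every other pair of neighbours in the order was separate. In S2-DRSC it ran bnl (9.8 ± 0.642 TPM), pyr (4.75 ± 0.268), btl (0.86 ± 0.115), htl (0.563 ± 0.0602), stumps (0.37 ± 0.04) and ths (0.108 ± 0.0206), and no neighbours overlapped. The receptor genes together were thus above the ligand genes together in D17-c3, by 4.8 to 7.44 times in TPM, while in S2-DRSC the receptor sum was 0.0864 to 0.105 times the ligand sum. In D17-c3, btl made up 90.6% to 92.8% of the TPM of the receptor genes, against 54.6% to 66.4% in S2-DRSC. The share of bnl in the TPM of the ligand genes was 84.2% to 91% in D17-c3 and 65% to 68.7% in S2-DRSC.

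Among 20 receptor tyrosine kinase genes, btl ranked second by mean TPM in D17-c3, after Pvr, the PDGF/VEGF-type receptor gene (361 ± 64.3 TPM), and before Egfr (88.2 ± 32.7 TPM), with which its libraries overlapped. Without D17-c3 replicate 2 its place before Egfr stayed, but by little, with means of 105 TPM for btl and 104 TPM for Egfr. In replicates 3 and 4 Egfr was higher (90.9 and 117 TPM, against 85.9 and 95.6 TPM of btl). The rank of htl was 11 in D17-c3. In S2-DRSC btl ranked 11 and htl 14, and Pvr was again highest (153 ± 6.87 TPM).

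Each table also gives a length per gene that is an average over its transcripts, weighted by their estimated abundance, which can be set against the transcripts annotated in Ensembl's BDGP6 annotation. All transcripts named in the tables for the members are in that annotation, and the lengths lay within the annotated range for all 6 members. Of 6098 genes whose length varied, 34% differed between the lines in a limma test on log2 length (22.2% longer in D17-c3). Of the members, 1 was called, htl, and pyr, with 1 transcript, could not be tested.

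The htl transcripts of D17-c3 were on average longer. The length was 3689, 3692, 3685 and 3707 bases in D17-c3, against 3541, 3590, 3568 and 3624 bases in S2-DRSC, without overlap (log2 ratio 0.04, adjusted p = 0.00336, limma). Of the annotated transcripts, htl-RB has 3838 bases and starts upstream, at 18052984, while htl-RA (3611 bases) and htl-RC (3492 bases) both start at 18049366. With 3 transcripts the shares cannot be solved, but the lengths bound that of htl-RB. It lay between a least value of 32.5% to 42.1% and a most of 55.7% to 62% in the D17-c3 libraries, against a least of 0% to 5.82% and a most of 14% to 38.2% in the S2-DRSC libraries. The bounds of S2-DRSC replicate 4 overlapped those of D17-c3 replicates 1, 2 and 3 but not those of D17-c3 replicate 4, and the S2-DRSC values rest on 113 to 173 counts.

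**Figure D3:**
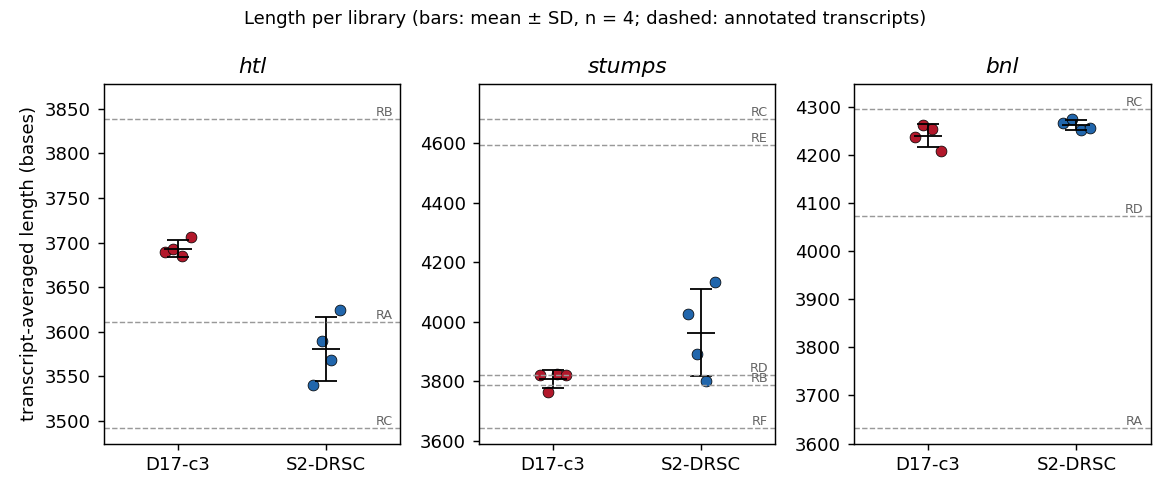
Length per library in bases, averaged over transcripts, for htl, stumps and bnl (points, with mean ± SD over 4 libraries as bars); dashed lines mark the exonic length of each annotated transcript. The y axes do not start at 0. The D17-c3 libraries lie at 3685 to 3707 bases for htl, above the S2-DRSC libraries, and the lines overlap for stumps and bnl.

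For btl, the lengths put nearly all RNA on the shorter transcript. The longer btl-RA (3905 bases, 4 exons) starts at 14075772 and made up 0.493%, 0.197%, 0.0855% and 0.467% of btl transcripts in D17-c3 and 0% in each S2-DRSC library. The rest was btl-RB (3753 bases, 3 exons), which starts at 14077065. For stumps the length was 3764 to 3826 bases in D17-c3 and 3802 to 4132 bases in S2-DRSC (adjusted p = 0.146, limma), a difference that was called without S2-DRSC replicate 3 (adjusted p = 0.0431). For bnl it was 4208 to 4261 bases in D17-c3 and 4250 to 4273 bases in S2-DRSC (adjusted p = 0.239, limma), near the 4295 bases of bnl-RC. For ths, with its few counts, the share of the longer transcript ths-RB ranged from 25% to 37.9% in D17-c3 and from 10.7% to 57.1% in S2-DRSC.

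Genes that overlap or flank the members were set beside them. Past the end of btl, 385 bases away on the same strand, CG8100 was at 12.7 ± 6.29 CPM in D17-c3 and 0.271 ± 0.014 CPM in S2-DRSC (log2 5.55 ± 0.37, adjusted p = 7.42e-07, edgeR), with its highest count (2036) in D17-c3 replicate 2, as for btl. Next to ths, CG13192 was lower in D17-c3 (9.65 ± 0.611 against 23.5 ± 1.89 CPM, log2 -1.29 ± 0.09), as pyr was. Next to pyr, lncRNA:CR45377, on the opposite strand, was higher in D17-c3 (0.381 ± 0.0876 against 0.0319 ± 0.0134 CPM, log2 3.49 ± 0.35).

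The gene 1562 bases past stumps on the same strand, CG14853, had 27 to 44 counts in D17-c3 and 0 to 3 counts in S2-DRSC (log2 4.75 ± 0.58, adjusted p = 4.73e-05, edgeR). Within an intron of stumps, on the opposite strand, lncRNA:CR46153 had 4 to 19 counts in D17-c3 and 0 to 1 counts in S2-DRSC and was not tested. Upstream of btl, Frl was slightly lower in D17-c3 (log2 -0.26, adjusted p = 0.0104, edgeR). Beside htl, CG7794 was higher (0.538 ± 0.068 against 0.226 ± 0.0215 CPM, log2 1.25 ± 0.19), with at most 58 counts, and CG14317 had at most 7 counts in any library. The remaining genes within or next to stumps, bnl and ths, CG44094, CG31459, CG13193, CG42493, Ir48c and the tRNA genes tRNA:Thr-AGT-1-7 and tRNA:Ala-AGC-2-11, had at most 3 counts in any library.

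The members did not move together among the flasks of D17-c3. In replicate 2, the CPM of pyr was 1.67 times, that of btl 1.52 times and that of htl 1.29 times the mean of the other D17-c3 libraries, while bnl was at 0.968 times, stumps at 0.8 times and ths at 0.734 times. Over the D17-c3 libraries the SD was 39.7% of the mean TPM for pyr and 34.5% for btl, against 12.8% for stumps and 11.7% for bnl. In S2-DRSC it was 5.64% for pyr, 13.4% for btl, 10.8% for stumps and 6.55% for bnl.

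**Figure D4:**
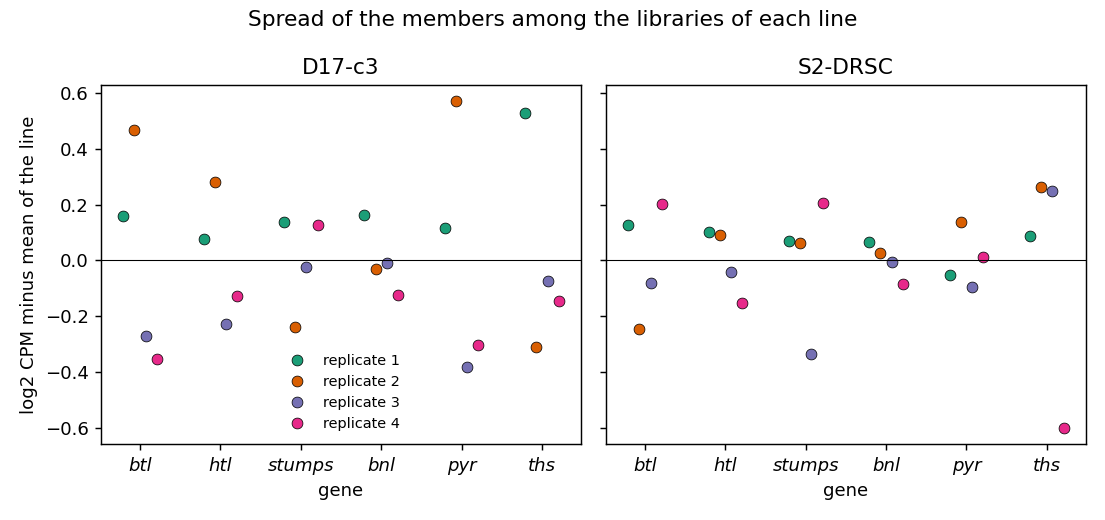
Log2 CPM of each member in each library minus the mean of its line, for D17-c3 (left) and S2-DRSC (right), with 1 colour per replicate number. In D17-c3, replicate 2 is highest for btl (0.47), htl (0.28) and pyr (0.57) and lowest for stumps (-0.24) and ths (-0.31).

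Markers of tracheal cells, in which btl is known to act, were followed beside it. Summed over 9 markers they stood at 21.0, 38.8, 7.91 and 11.2 TPM in D17-c3 replicates 1 to 4, so that replicate 2 was highest here as well. In S2-DRSC the sum was 10.6 to 11.3 TPM. Most of the sum was the gene verm in D17-c3 (15.4, 30.6, 4.83 and 7.23 TPM) and dpy in S2-DRSC (8.3 to 8.92 TPM). Of the 7 markers tested, 3 were higher in D17-c3: the chitin deacetylase genes verm (19.6 ± 14.4 against 0.646 ± 0.0598 CPM) and serp (3.93 ± 2.31 against 0.342 ± 0.074 CPM) and trh, the gene for the transcription factor that turns on tracheal fate (1.58 ± 0.325 against 0.779 ± 0.179 CPM). Another 2, uif (0.108 ± 0.066 against 7.27 ± 0.992 CPM) and dpy (19.6 ± 5.76 against 259 ± 9.59 CPM), were lower. Together 71.4% of the tested markers were called, beside 75.2% of all tested genes. The tracheal transcription factor gene vvl had 1 to 6 counts in D17-c3 and 1 to 5 counts in S2-DRSC. In D17-c3 replicate 2 verm was at 3 times and serp at 2.52 times the mean of the other D17-c3 libraries, but trh at 0.628 times. Without that library the log2 fold change of verm was 4.34, against 4.92 with all libraries. The part of the state of that library in the btl difference was measured only by leaving it out, with the value given above.

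Adult muscle precursors of the discs are known to express htl and stumps. This list had 9 markers, all tested, of which 55.6% were called, beside 75.2% of all tested genes. Of the 9 markers, 5 were called toward D17-c3 and 0 toward S2-DRSC. They were led by Him, an inhibitor of muscle differentiation (38.3 ± 11.9 against 0.093 ± 0.051 CPM, log2 8.70 ± 0.38), followed by twi (0.233 ± 0.0884 against 0.0386 ± 0.0116 CPM) and vg (1.41 ± 0.778 against 0.242 ± 0.0203 CPM), both low. The muscle factor gene Mef2 was at 50.1 ± 5.51 CPM in D17-c3 and 57.3 ± 1.63 CPM in S2-DRSC with no call (adjusted p = 0.0624, edgeR). Without D17-c3 replicate 2, Mef2 was called lower in D17-c3 (log2 -0.25, adjusted p = 0.00996, edgeR), and sns (log2 0.71) and ct (log2 0.26) were called higher. The summed level of the list was 241 to 326 TPM in D17-c3 and 106 to 118 TPM in S2-DRSC. The largest part of that sum was zfh1, at 124 to 164 TPM in D17-c3 and 61.8 to 69.2 TPM in S2-DRSC. The part of the list in the htl and stumps differences was not tested.

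Of 5 glial markers, all tested, 80% were called, beside 75.2% of all tested genes. Of these markers 3 were higher in D17-c3, gcm (0.245 ± 0.118 against 0.0244 ± 0.0198 CPM), nrv2 (161 ± 44.2 against 26.7 ± 0.411 CPM) and repo, the defining transcription factor gene (0.208 ± 0.0729 against 0.0741 ± 0.0298 CPM), and moody was lower. Summed they stood at 227 to 285 TPM in D17-c3 and 118 to 156 TPM in S2-DRSC, but loco, which had no call (adjusted p = 0.114, edgeR), and nrv2 made up most of that sum in D17-c3. The defining genes repo and gcm were at 0.07 to 0.16 TPM and 0.09 to 0.35 TPM in D17-c3, against 0.02 to 0.04 TPM and 0.01 to 0.04 TPM in S2-DRSC. For gcm the log2 fold change was 3.93 without S2-DRSC replicate 3, against 3.26 with all libraries. The mean CPM of gcm in S2-DRSC was below the floor of 3 counts there (0.0272 to 0.0359 CPM), so both values rest on few counts. The part of the glial markers in the htl difference was not tested.

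The named origins of the lines were checked against markers. Of the disc markers tested 100% were called, and of the hemocyte markers 77.8%, beside 75.2% of all tested genes. Of 10 disc markers tested, 7 stood higher in D17-c3, with en and hh, genes of posterior cells, and ci (369 ± 37.9 against 2.22 ± 0.306 CPM) in front, while ap, crb and dpp were lower, and Dll, not tested, had at most 8 counts in any library. Of 9 hemocyte markers, 6 were lower in D17-c3, led by Nplp2, vkg and Col4a1 (15.6 ± 3.83 against 2850 ± 27.1 CPM), and srp was slightly higher (401 ± 36.3 against 321 ± 11.4 CPM). The disc markers were thus present only in part in D17-c3. In D17-c3 replicate 2 the hemocyte gene He, with no call between the lines, was at 6.62 times the mean of the other D17-c3 libraries. Without that library, He (log2 -1.60) and NimC1 (log2 -0.97) were called lower in D17-c3 too (adjusted p = 1.68e-05 and 0.00117, edgeR).

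The cascade that both receptors use was expressed in both lines with mostly small differences. Of 14 Ras/MAPK cascade genes tested, 4 were higher and 7 were lower in D17-c3, 78.6% together, beside 75.2% of all tested genes. None differed by as much as 2-fold, though rl came near it (1.99-fold lower, 95% interval of log2 -1.17 to -0.82). The median was -0.24 on the log2 scale. The higher ones were led by csw, the phosphatase gene Corkscrew (log2 0.71 ± 0.13), the Src kinase gene Src42A (0.63 ± 0.07) and the scaffold gene ksr (0.45 ± 0.09). The lower ones were led by rl, the MAP kinase gene (98.7 ± 5.8 against 197 ± 16.1 CPM, log2 -0.99 ± 0.08), the SH2 adaptor gene drk (-0.70 ± 0.08) and the scaffold gene cnk (-0.46 ± 0.05). With library totals in place of TMM 3 genes were lower, and 2 were lower when unscaled TPM were tested with either pseudocount, where cnk had an adjusted p of 0.0679 and 0.071 (limma).

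Genes that FGF and other MAPK signals are known to induce or that feed back on them were mostly lower in D17-c3, where the receptor genes were higher. Of 11 such genes 9 were tested, 7 were lower and 2 were higher, and the median log2 ratio was -1.09. These calls are 100% of those tested, beside 75.2% of all tested genes (36.1% lower and 39.1% higher). The transcription factor gene pnt stood at 610 ± 97.2 CPM in D17-c3 and 1996 ± 115 CPM in S2-DRSC (log2 -1.71 ± 0.13, adjusted p = 1.41e-06, edgeR). The MAPK phosphatase gene Mkp3 (95.4 ± 6.73 against 290 ± 24.6 CPM, log2 -1.60 ± 0.08) and sty, the Sprouty antagonist gene first found as a brake on Breathless signalling (299 ± 17 against 896 ± 57.3 CPM, log2 -1.58 ± 0.08), followed. Higher in D17-c3 were esg (2.05 ± 0.518 against 0.538 ± 0.141 CPM, log2 1.93 ± 0.26), a transcription factor gene of tracheal tip cells, and Cbl, a ubiquitin ligase gene that acts on receptors (log2 0.55 ± 0.10). Not tested were kni and knrl, which had at most 10 counts in any library. Other receptors are known to act on these genes as well, among them Egfr and Pvr, and both of these were higher in D17-c3 (log2 8.52 ± 0.41 and 0.98 ± 0.14). Not all other receptor tyrosine kinase genes were: of 18 tested, 11 were higher and 5 were lower, 88.9% together, among the lower Alk (log2 -2.46 ± 0.12). The part of any of these receptors in the levels of the target genes was not tested.

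Regulators that are known to act on the member genes differed in both directions. Of 8 such genes 7 were tested, 4 were higher and 3 were lower in D17-c3, 100% of those tested, beside 75.2% of all tested genes. Twist, which turns on htl and stumps in the embryonic mesoderm, was low in both lines, with 13 to 33 counts of twi in D17-c3 and 3 to 5 counts in S2-DRSC (log2 2.56 ± 0.38). Hph, the oxygen sensor gene whose product marks the hypoxia factor Sima for degradation, was higher (465 ± 41.7 against 204 ± 39.8 CPM, log2 1.19 ± 0.14), as was trh, which activates btl (log2 1.02 ± 0.23). The gene sima itself was higher too (278 ± 10.4 against 198 ± 22 CPM, log2 0.49 ± 0.09). The mesoderm genes sna (0.0297 ± 0.0246 against 0.473 ± 0.136 CPM, log2 -3.89 ± 0.45) and tin (0.329 ± 0.278 against 0.965 ± 0.0365 CPM, log2 -1.54 ± 0.45) were lower, both under 1 CPM on average in either line, and so was tgo, the partner of Trachealess and Sima (log2 -0.33 ± 0.09). In D17-c3 replicate 2 tin had 70 counts, against 14 to 19 in the other D17-c3 libraries and 73 to 100 in S2-DRSC. Without that library the log2 fold change was -2.33 for tin (adjusted p = 9.45e-07, edgeR) and -4.55 for sna. With 1 to 6 counts of sna in the D17-c3 libraries, its fold changes rest on few counts. The call of tgo ended with library totals (adjusted p = 0.163, edgeR) and in both tests on unscaled TPM.

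FGF ligands bind heparan sulfate on the cell surface. Of 15 genes for heparan sulfate proteoglycans and their enzymes, all tested, 6 were higher and 7 were lower in D17-c3. Together these were 86.7%, beside 75.2% of all tested genes. The core protein genes were on the higher side, led by trol, the perlecan gene (1153 ± 409 against 113 ± 5.06 CPM, log2 3.35 ± 0.28), dlp, a glypican gene (136 ± 27.1 against 21.0 ± 0.996 CPM, log2 2.7 ± 0.14), and Sdc, the syndecan gene (log2 1.3 ± 0.12). The gene for a second glypican, dally (log2 1.29 ± 0.15), was higher too. Toward S2-DRSC stood sgl, which makes the sugar precursor UDP-glucuronate (43.7 ± 7.17 against 488 ± 18.6 CPM, log2 -3.48 ± 0.12), Sulf1, a sulfatase gene (log2 -2.69 ± 0.13), and Papss, which makes the sulfate donor (log2 -2.62 ± 0.06). In D17-c3 replicate 2 trol was at 0.405 times the mean of the other D17-c3 libraries.

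Furin proteases are known to cleave Branchless before it is released. Fur1 was lower in D17-c3 (34.9 ± 3.55 against 75.4 ± 8.27 CPM, log2 -1.11 ± 0.10), and Fur2 was at 195 ± 20.4 CPM in D17-c3 and 174 ± 8.53 CPM in S2-DRSC with no call (adjusted p = 0.116, edgeR). Fur2 was called higher without D17-c3 replicate 2 (adjusted p = 0.0108, edgeR), with a filter of 1 CPM in 4 libraries (adjusted p = 0.0462, edgeR), with library totals and on unscaled TPM.

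Of 18 other receptor tyrosine kinase genes, all tested, 11 were higher and 5 were lower in D17-c3, and the median on the log2 scale was 1.3. Together 88.9% were called, beside 75.2% of all tested genes. Toward D17-c3, the list was led by sev (335 ± 106 against 0.72 ± 0.124 CPM, log2 8.86 ± 0.33), Ddr (72.9 ± 35.3 against 0.189 ± 0.0621 CPM, log2 8.60 ± 0.59) and Egfr (log2 8.52 ± 0.41), which differed by as much as btl and stumps. Unlike btl, these genes were low in D17-c3 replicate 2, at 0.473, 0.236 and 0.358 times the mean of the other D17-c3 libraries. Toward S2-DRSC stood drl (log2 -3.22 ± 0.24), Alk (16 ± 2.01 against 87.6 ± 10.7 CPM, log2 -2.46 ± 0.12) and Tie (log2 -0.76 ± 0.28). The call of Tie ended without D17-c3 replicate 1, 3 or 4 or S2-DRSC replicate 1, 2 or 3 (adjusted p = 0.0535 to 0.0871, edgeR), with library totals and in both tests on unscaled TPM. In these last 3 settings 2 genes of the list were lower in D17-c3. Without D17-c3 replicate 2, otk was called higher in D17-c3 (log2 0.34, adjusted p = 0.0385, edgeR).

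**Figure D5:**
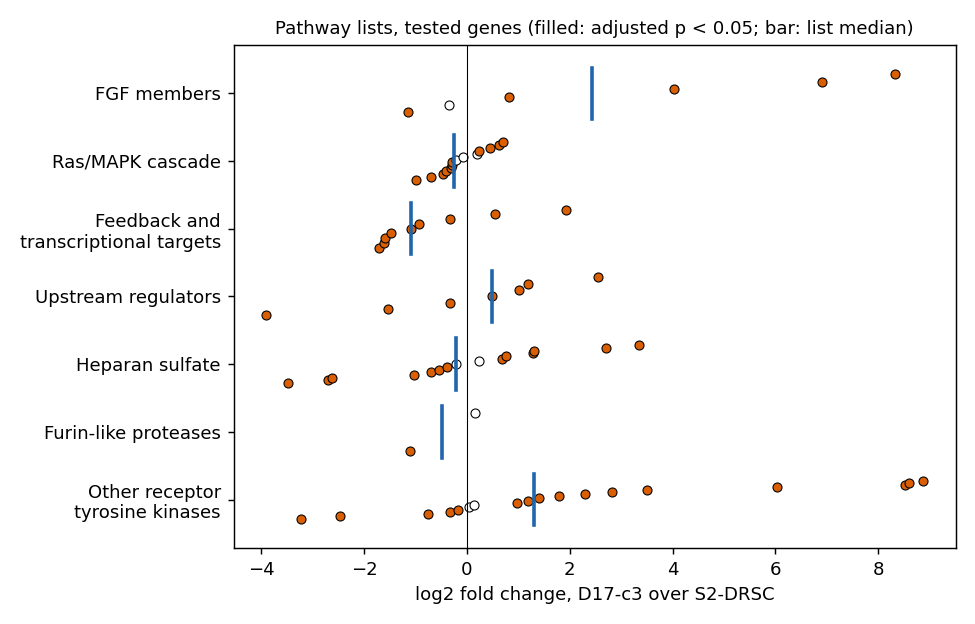
Log2 fold change (x axis, D17-c3 over S2-DRSC) of the tested genes of each list (rows), filled where the adjusted p is under 0.05, with the list median as a bar. The medians are 2.43 for the FGF members, -0.24 for the Ras/MAPK cascade, -1.09 for feedback and target genes and 1.3 for other receptor tyrosine kinases.

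The genes whose pattern over the 8 libraries was most like that of a member were found among the 11605 other tested genes, by the root mean square difference of log2 CPM after each gene's mean was subtracted. For btl they were CngA (0.146), CG42795 (0.193) and Obp44a (0.209, at 147 ± 39.4 against 0.97 ± 0.0739 CPM), which shared its high value in D17-c3 replicate 2. For stumps they were lncRNA:CR44498 (0.146) and the Notch target genes E(spl)malpha-BFM (0.185, at 116 ± 25.3 against 0.37 ± 0.0952 CPM) and E(spl)mgamma-HLH (0.211), with low values in that replicate. For htl they were lawc (0.129), CG11686 (0.132) and asRNA:CR45130 (0.152). For bnl they were mei-41 (0.0454), pre-mod(mdg4)-O (0.062) and CG9596 (0.0656), and for pyr Muc68Ca (0.109), CG15099 (0.112) and Tektin-C (0.114). With 2 lines, such likeness rests mostly on the difference between the lines and on the values of D17-c3 replicate 2, and ths, at under 1 CPM, was left out.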

How the data were processed

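Polyadenylated RNA of 8 cultures, 4 per line, was sequenced from libraries of a stranded kit, per the labels' protocols. The submitters' processing notes list BDGP6 and dm6 as builds and, with no role given, RSEM, featureCounts and its package Subread (2.0.0), the aligner STAR (2.7.3a), Trim Galore (0.6.4) and DESeq2 (1.30.1). Per the file headers, the authors deposited RSEM gene tables with expected counts, TPM, FPKM and lengths in bases. No label or header says whether strand was used in counting. The deposited FPKM values entered no test.

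Expected counts (16.8% to 18.2% not whole) were rounded and tested with edgeR 4.0.16 (TMM, filterByExpr, threshold 0.05) over all 8 libraries. SEs were derived from the fold change and the F statistic. CPM used TMM-scaled totals. Lengths were tested with limma 3.58.1 on the log2 scale. The tests were also run on simulated data, with an outcome that is not reported here. No replicates of a line agreed within sampling noise (chi-square per degree of freedom at least 8.18). Positions come from Ensembl's BDGP6 annotation, which matched 17633 of 17730 identifiers. The floor covers counting error only.

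The members, the gene lists and the tests were chosen with earlier results of these data known. Named were all members, the 3 genes most like each, up to 3 called genes in each direction from every list, by size of change, and the genes overlapping or flanking a member. Of the genes by that last rule, 1 is not reported here. Other genes named (dally, Mef2, sns, ct, zfh1, sima, Dll, He, NimC1, loco, vvl, kni, knrl, Pvr, Fur2, otk, Hs6st, Hsepi, bs) were chosen after their values were seen. Alternatives were DESeq2 1.42.0 and its size factors, library totals, other filters, a replicate block, limma on log2(TPM + 1), log2(TPM + 0.1) and TMM-scaled TPM, and leaving out each library.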

Additional observations from a re-analysis of the deposited data

How the results depend on the processing

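The direction and the call of btl, htl, stumps, bnl and pyr held under all 17 alternatives, and ths had no call under the 16 that kept it (it was not tested with a filter of 1 CPM in 4 libraries). The log2 fold changes ranged from 6.01 to 7.07 for btl, 2.88 to 4.21 for htl, 6.74 to 8.48 for stumps, 0.74 to 1.06 for bnl and -1.36 to -0.71 for pyr. The lowest for btl, htl and stumps came from log2(TPM + 1), whose pseudocount shrinks folds of low genes. Counts of list genes lower in D17-c3 changed by over 1.5 times on 3 lists: Ras/MAPK genes fell from 7 to 3 with library totals and 2 in both tests on unscaled TPM, and other receptor tyrosine kinase genes from 5 to 2 in these 3; the filter of 1 CPM left 3. Upstream regulators lower in D17-c3 fell from 3 to 1 with that filter, which removed sna and tin. Smaller changes were 7 to 5 heparan sulfate genes in both tests on unscaled TPM (Hs6st and Hsepi lost their calls), and 7 to 6 target genes (without bs) and 3 to 2 upstream regulators (without tgo) with library totals and in both of those tests. With library totals, log2(TPM + 1) and log2(TPM + 0.1), the median over all genes moved from 0.04 to 0.21, 0.18 and 0.25 on the log2 scale, and the share of calls higher in D17-c3 from 52% to 60%, 62.9% and 62.9%. The furin genes higher in D17-c3 went from 0 to 1 with library totals, the filter of 1 CPM and both tests on unscaled TPM and ran from 0 to 1 with a library left out. Target genes higher in D17-c3 rose from 2 to 4 with no filter, which let kni and knrl in. The log2 length ratio of stumps ranged from -0.0766 to -0.0365 and that of ths from -0.1874 to 0.0448 with a library left out, reversing without S2-DRSC replicate 1 (0.0448, against -0.0543 with all); the cause was not tested. With the replicate number as a block (replicate block), 4419 genes were higher and 4193 were lower in D17-c3, against 4533 and 4192, and the members kept their calls. In their deviations from the line means, same-numbered libraries of the lines correlated at -0.1409 to 0.1986, and differently numbered ones at -0.2609 to 0.3644. No pairing by number was thus seen, but the labels give no date or batch, and whether the numbers pair flasks is not known. The counts of ths limit what could be seen of it.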
